A study of Mus musculus with 18 samples.

Results

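The cytosolic ribosomal protein genes encode the protein components of the ribosome outside mitochondria. They were chosen by symbol from the protein-coding genes of the mm10 annotation (Rpl or Rps followed by a number, with an optional a, x, l or p ending, without the Rps6k kinases). The rule gave 77 genes of 21631 coding genes, 47 of the large subunit and 30 of the small subunit. Their accessible regions were the ATAC-seq peaks with a summit within 1 kb of either end of such a gene, 1190 of 314425 peaks used, which merged into 75 regions. ATAC-seq maps open chromatin through the sites at which Tn5 transposase inserts adapters.

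The study profiled naive CD4+ T cells, freshly prepared from wild-type C57BL6/J mice without treatment. The cells were taken at a low or a high level of the Nr4a1-dsGFP reporter, the study's measure of tonic T cell receptor stimulation (TTS in the labels), in the axillary nodes, the mesenteric nodes and the spleen. These 6 groups of 3 libraries, 18 in all, share genotype, strain and cell type and differ in organ and reporter level. The labels name them biological replicates and do not say whether a replicate was 1 animal or a pool. Nr4a1 is an immediate early gene of receptor signalling.

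Ribosomes are assembled from ribosomal RNA and 1 copy of most of these proteins, so the genes are transcribed together at high rates in growing cells. Their messages begin with a C followed by pyrimidines, the terminal oligopyrimidine tract through which mTOR signalling controls their translation. Naive T cells are quiescent and keep translation low until an antigen receptor signal starts growth. Promoters of these genes are compact, usually lie in CpG islands and mostly lack a TATA box.

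Promoter sequence was available from RefSeq (GRCm38.p6, the assembly of mm10) for 58 of the 77 genes, in 70 windows from 250 bases before to 50 bases after an annotated start. Each sequence below runs from 120 bases before the start to 20 bases from it, 5′ to 3′ on the gene's strand. Rpl37 and Rpl10a are shown as the genes with the strongest and the weakest region present in all libraries, and Rps12, Rpl39, Rpl31, Rps6, Rps19 and Rps7 as genes that the comparisons turn on. Rps25 and Rpl19 are shown as genes without a peak within 1 kb of an end, and were picked after their values were seen. Capitals mark exact matches, on either strand, of the ETS core CCGGAAG, the YY1 core AAGATGGC, the SP1 box GGGCGG, the NRF1 string GCGCATGC, the CCAAT box CCAAT, the CRE TGACGTCA and the TATA box TATAAA. They also mark a run of 5 pyrimidines led by C that begins within 5 bases of the start.
Rpl37: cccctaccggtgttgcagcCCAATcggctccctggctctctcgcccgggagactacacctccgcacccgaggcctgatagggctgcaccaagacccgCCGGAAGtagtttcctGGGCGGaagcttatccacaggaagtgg
Rpl10a: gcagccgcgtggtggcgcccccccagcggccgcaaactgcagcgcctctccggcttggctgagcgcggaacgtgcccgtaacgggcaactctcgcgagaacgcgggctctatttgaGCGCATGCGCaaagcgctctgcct
Rps12: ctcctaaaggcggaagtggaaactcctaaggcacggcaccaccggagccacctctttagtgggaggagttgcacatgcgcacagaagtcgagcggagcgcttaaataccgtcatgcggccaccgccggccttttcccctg
Rpl39: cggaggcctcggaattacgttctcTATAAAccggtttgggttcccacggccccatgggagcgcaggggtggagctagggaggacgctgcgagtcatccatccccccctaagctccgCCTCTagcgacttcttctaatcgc
Rpl31: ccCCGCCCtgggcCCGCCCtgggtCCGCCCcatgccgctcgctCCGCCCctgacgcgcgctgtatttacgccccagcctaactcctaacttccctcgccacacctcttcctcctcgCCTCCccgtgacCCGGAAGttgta
Rps6: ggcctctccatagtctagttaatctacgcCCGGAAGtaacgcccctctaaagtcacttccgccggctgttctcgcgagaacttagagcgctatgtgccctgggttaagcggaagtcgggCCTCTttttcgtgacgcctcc
Rps19: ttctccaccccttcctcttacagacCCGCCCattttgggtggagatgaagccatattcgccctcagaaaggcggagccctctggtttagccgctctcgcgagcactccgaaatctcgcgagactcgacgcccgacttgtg
Rps7: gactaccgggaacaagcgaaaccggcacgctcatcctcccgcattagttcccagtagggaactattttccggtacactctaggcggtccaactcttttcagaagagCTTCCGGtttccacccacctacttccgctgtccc
Rps25: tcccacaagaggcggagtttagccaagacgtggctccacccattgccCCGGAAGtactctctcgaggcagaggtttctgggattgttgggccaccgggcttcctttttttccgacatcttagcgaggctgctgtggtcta
Rpl19: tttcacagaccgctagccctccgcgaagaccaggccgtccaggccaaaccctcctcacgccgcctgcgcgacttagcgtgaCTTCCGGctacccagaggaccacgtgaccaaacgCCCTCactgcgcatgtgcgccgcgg

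In mm10 these stretches lie, with their strand, at Rpl37 chr15:5116493-5116632 (plus), Rpl10a chr17:28328445-28328584 (plus), Rps12 chr10:23787190-23787329 (minus), Rpl39 chrX:37085203-37085342 (minus), Rpl31 chr1:39367731-39367870 (plus), Rps6 chr4:86857348-86857487 (minus), Rps19 chr7:24884472-24884611 (plus), Rps7 chr12:28635934-28636073 (minus), Rps25 chr9:44407594-44407733 (plus), Rpl19 chr11:98026590-98026729 (plus). The promoters of Rpl37 and Rpl10a share none of the strings. That of Rpl37 holds an ETS core 23 bases before the annotated start and an SP1 box 7 bases before it, while that of Rpl10a holds the NRF1 string on both strands at the start. Rps12, the gene with the largest organ difference below, holds none of the strings in this stretch. Rpl31 has 4 SP1 boxes, and Rpl39 has a TATA box 96 bases before its start. Rps25 and Rpl19, which had few or no peaks, hold an ETS core as Rpl37 does.

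Over all 70 windows, the ETS core stood in 34.3%, against 11.7% of the 21045 windows of all coding genes of the same length. The YY1 core stood in 10% against 3.07%, and the CRE in 7.14% against 2.26%. A C-led pyrimidine run at the start stood in 42.9% (28 genes) against 18.7%. The SP1 box (55.7% against 46.7%) and the NRF1 string (4.29% against 3.54%) were nearer to the background, and the CCAAT box (28.6% against 38.5%) and the TATA box (8.57% against 12.7%) were less frequent than in all windows. The ETS core ends in the letters with which the YY1 core begins, and no member window held an overlapping pair. Windows covered 75.3% of the genes, short of the 80% needed to speak for the whole family. A match is a description of the letters only, and its link to accessibility was not tested.

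The libraries differed in ways that bear on the values. They held 14372 to 23129 peaks, and their relative depth, read from the caller's genome-wide background, was 8.48 to 16.6 reads per 10 kb. The mesenteric high libraries were the deepest (16.6 ± 0.0549 reads per 10 kb, SD, n = 3) and the axillary low libraries the shallowest (9.08 ± 0.541, SD, n = 3). The caller's fragment estimate was 161 to 176 bp in 12 libraries and 216 to 236 bp in the other 6, namely spleen low replicate 3 and all axillary libraries except high replicate 2. Libraries of 1 group differed by less than the sampling noise of their reads (mean chi-square per region 0.512 to 0.636, where 1 is Poisson noise). Each group was therefore counted as 1 sample in the main tests of reads between levels and between organs. The tests of peak presence and of interaction used the 18 libraries. Over all regions, libraries of different groups also stayed under Poisson noise (0.621 to 0.948). Over the member regions alone, the values were 0.530 to 0.854 within groups and 0.386 to 1.19 between groups. Of 12 naive CD4 T cell markers 9 had a peak within 1 kb of a gene end in some library, Cd3d and Ccr7 in all 18 and Cd4 in 11, while Lef1, Tcf7 and Il7r had none. Of 7 B cell markers only Ebf1 had a peak (2 libraries), of 5 myeloid markers Itgam (3) and Spi1 (4), and of 3 NK cell markers none, whereas Cd8b1 had a peak in all 18 libraries and Cd8a in none.

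The ribosomal protein genes were mostly accessible in every library. A peak lay within 1 kb of an end in all 18 libraries for 47 of the 77 genes (61.0%), where the background over all coding genes was 30%. Another 21 genes (27.3%, background 19.1%) had a peak in 4 to 17 libraries, and 9 (11.7%, background 50.9%) had none. The large subunit had 28 genes present in all libraries, 13 in some and 6 in none, and the small subunit 19, 8 and 3. The nuclear genes of mitochondrial ribosomal proteins, a list of 78, split into 43, 30 and 5. Of 11 further cytosolic ribosome genes outside the symbol rule, 8 had a peak in all libraries, among them Rplp0, Rplp1 and Rplp2 of the stalk and Rack1 of the small subunit head, while Rpl7l1 had one in 17 and Fau in 12. Translation factors with the same kind of message start (13 of 19 in all libraries) and ribosome biogenesis genes (23 of 30) stood in the same range.

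**Figure D1:**
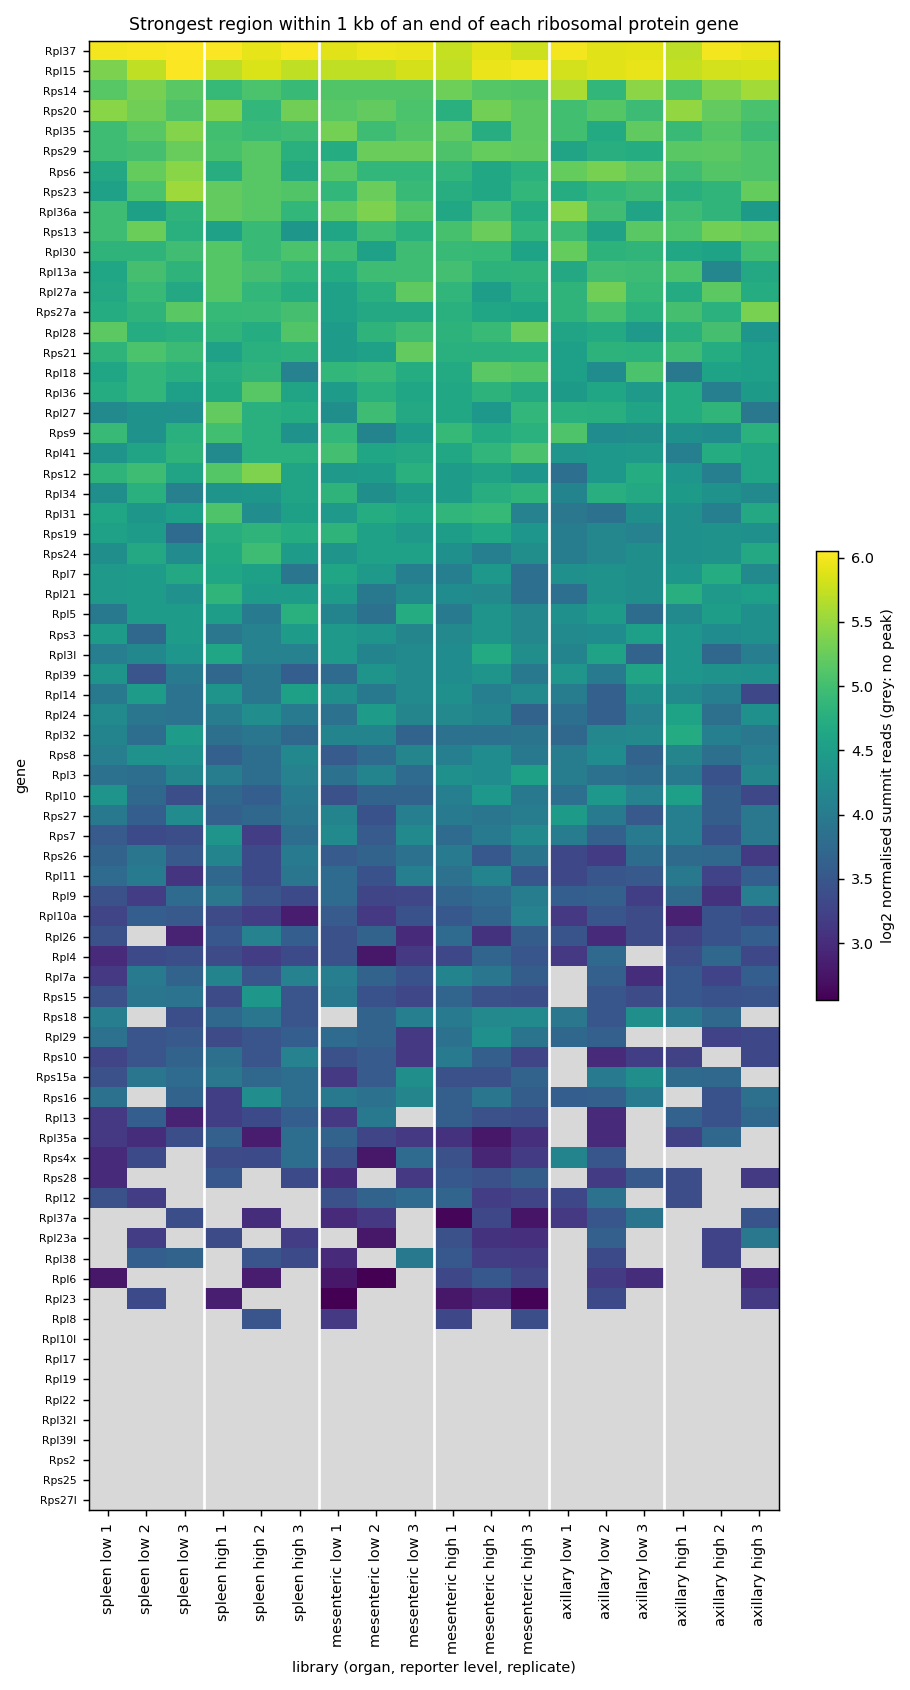
Heat map of log2 normalised summit reads of the strongest region of each of 73 of the 77 genes (vertical axis) in the 18 libraries (horizontal axis), with grey where the library has no peak. The 44 genes at the top have a peak in every library, the 20 below them in 4 to 17, and the 9 at the bottom in none.

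The 9 genes without a peak were of 3 kinds. For Rpl22, a protein with a paralog and a known role in T cell development, Rps27l, the paralog of Rps27, and Rps2, a region present in all 18 libraries lay just beyond the limit, with its nearest summit 1263, 1286 and 1747 bp from the gene's end. That region lay inside the annotated gene, at a median of 81.5, 84 and 78 bp from an annotated transcript start, so the outermost gene end, not the start, was far from the peak. Rpl17 had a region in 18 libraries with the nearest summit 1437 bp from its end, and no promoter window was used for it. Rpl19, at chr11:98022003-98030493, had no peak within 1 kb of an end, but 4 libraries had a summit within 1 kb of an annotated start, the nearest 23 bp from it. Rps25, at chr9:44407714-44410406, had its nearest summit 7561 bp from an end and 10253 bp from its start. The other 3 were Rpl10l and Rpl39l, paralogs of Rpl10 and Rpl39 known from the testis, with the nearest summits 1024521 and 209216 bp away, and Rpl32l at 3403 bp. On the inner side of the limit, Rpl38 had its nearest summit at 651 bp and Rpl29 at 340 bp. Counted from annotated starts, 33 of 58 genes had a peak within 1 kb in all libraries, 20 in some and 5 in none (Rps25, Rpl10l, Rpl39l, Rpl32l and the muscle paralog Rpl3l). The share of all coding genes counted in this way is not given here.

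The genes with a peak in only some libraries had weak regions, with mean summit reads of 8.38 to 17.5 in the libraries that called them. Rpl8, a large-subunit protein close to the peptidyl transferase centre, had a peak in 4 libraries, 3 of them mesenteric and 1 spleen high. Rpl23 had a peak in 8 libraries, Rpl38, Rpl23a and Rpl6 in 10, Rpl12 of the stalk base and Rpl37a in 11, Rps28 in 12 and the X-linked Rps4x in 13. Rpl13 and Rpl35a had a peak in 15 libraries, Rps16, Rps10, Rps15a and Rpl29 in 16, and Rps15, Rpl4, Rpl26, Rpl7a and Rps18 in 17. Over these 21 genes, 113 of 126 gene and library pairs had a peak in mesenteric nodes, 94 in spleen and 78 in axillary nodes, and 149 of 189 at the high level against 136 at the low level. The matching shares over all coding genes with a peak in some libraries are not given here. These counts thus cannot be read as particular to the ribosomal protein genes. In all 3 mesenteric high libraries, the deepest, 20 of the 21 genes (Rpl8 excepted) had a peak, and 1 of the 21, Rpl26, had a peak in all 6 axillary libraries, among the shallowest.

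Per library, 56 to 68 members had a peak, 67 to 68 in the mesenteric high libraries and 56 to 67 in the axillary low libraries. With each list shortened to its 14372 strongest peaks, the range was 56 to 67, and the mesenteric high libraries had 57 to 61. Axillary low replicate 2 had 67 members with a peak, where the other 2 libraries of its group had 56 and 58. The part of depth in these counts was otherwise not tested.

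Between high and low, 11 member regions were present in 6 to 12 libraries and could be tested, and none passed Fisher's exact test after adjustment over all 5737 regions tested (background 0%), nor at an unadjusted p under 0.05 (background 6.1%). The widest gap was at Rpl23a, present in 7 of 9 high and 3 of 9 low libraries (adjusted p = 0.811, exact). Across organs, 12 member regions were tested with the exact Fisher-Freeman-Halton test, and none passed after adjustment over 7630 regions (background 0%). At an unadjusted p under 0.05 there was 1 of the 12, a share below the background of 11.2%, and 0 at equal list length. It was a second region of Rpl36 at chr17:56613260-56613604, present in 5 of 6 spleen, 6 of 6 mesenteric and 1 of 6 axillary libraries (adjusted p = 0.280, exact). Rps4x followed with 5, 6 and 2 libraries of 6, in the same order, and Rpl12 with 2, 6 and 3. Both presence tests take the libraries of a group as independent, so their p-values may be too small.

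Where the annotation gives a start, the peaks lay at it. Among the 33 genes with a region in all libraries and an annotated start, the median summit was 46 bp upstream of the start (-46 bp), 69.7% were upstream and 84.8% within 250 bp. Other coding genes with such regions, 5410 in all, had a median of -48.5 bp, with 68.0% upstream and 83.3% within 250 bp. Rps3, Rpl9 and Rps13 had their summits 6 bp or less downstream of the start, and Rpl37 had it at -96 bp and Rps26 at -324.5 bp. The strongest region of Rpl18 lay at the gene's outermost upstream end, 2744 bp before the annotated start, and a peak within 1 kb of that start was called in 7 libraries. The rule also took the downstream ends of genes, and for a few genes the strongest region was there. That of Rpl41, which encodes the shortest of the proteins, lay 1378 bp downstream, within 1 kb of Zc3h10, while a second region at -66 bp was present in 16 libraries. The strongest region of Rpl3l lay 3836.5 bp downstream, within 1 kb of Msrb1, so its values do not describe the Rpl3l promoter. That of Rpl4 lay 5994 bp downstream, near Snapc5, and its region at -361 bp was present in 7 libraries.

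**Figure D2:**
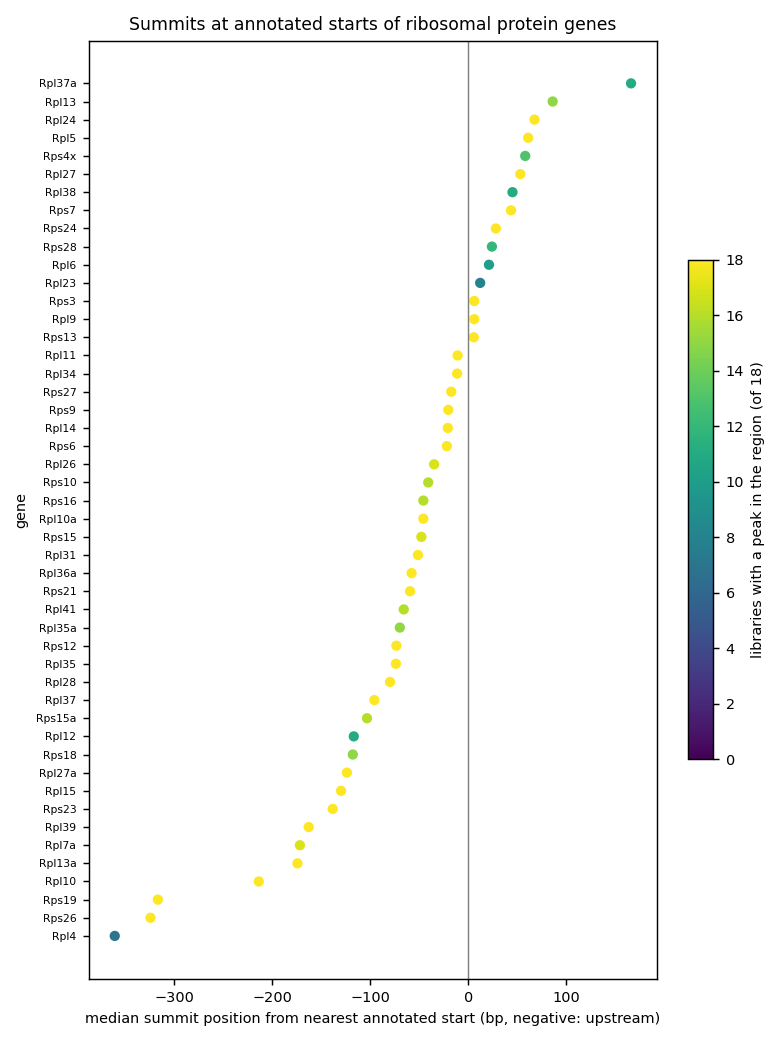
Median summit position (horizontal axis, bp from the nearest annotated start, negative upstream) of the 48 member regions within 400 bp of a start, 1 point per region, coloured by the number of libraries with a peak. Of these, 33 lie upstream, with a median of -46 bp and a range from -361 bp at Rpl4 to 166 bp at Rpl37a.

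The strength of a region was measured as the reads at its summit, recovered as whole numbers from the deposited fold and p and scaled between libraries. Among the 8756 regions present in all libraries, a rank percentile of 100 is the strongest. The 47 members had a median rank percentile of 54.0, against 56.3 for all coding genes with such a region, 58.1 for mitochondrial ribosomal protein genes, 58.8 for the translation factors, 58.7 for ribosome biogenesis genes and 36.9 for the other cytosolic ribosome genes. Only 3 of the 47 ranked in the top 10% (6.38%, against 11.9% of all coding genes) and 2 in the bottom 10% (4.26% against 2.54%). The small-subunit genes had a median of 56.3 and the large-subunit genes of 48.8. Genes with a snoRNA gene inside them, 16 of those ranked, had a median of 47.9 and the others of 56.3. The 3 ranked X-linked genes, Rpl10, Rpl39 and Rpl36a, had a median of 30.4.

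Rpl37, a zinc-binding protein of the large subunit, had the strongest region, at chr15:5116176-5116885. Its normalised summit reads were 63.7, 64.8 and 66.5 in spleen low, 65.8, 60.7 and 64.8 in spleen high, 59.8, 62.7 and 61.8 in mesenteric low, 53.5, 60.3 and 55.5 in mesenteric high, 63.8, 59.7 and 59.9 in axillary low and 52.3, 63.6 and 61.9 in axillary high. The 18 values, 61.2 ± 4.02 (SD, n = 18), stood in a narrow band, and its rank percentile was at least 94.9 in every library. Rpl15 followed with 55.9 ± 5.54 reads (SD, n = 18, rank percentile 96.0), and both regions also lie within 1 kb of another coding gene, Card6 and Nkiras1. Rps14 had 36.8 ± 5.79 reads (rank percentile 82.1), Rps20 36.1 ± 4.78 (81.5) and Rpl35 33.3 ± 4.21 (77.2). Rps14 is known as the small-subunit gene lost in a human myelodysplastic syndrome.

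Rpl10a, a large-subunit protein near the exit site of transfer RNA, had the weakest region present in all libraries, at chr17:28328245-28328855. Its normalised summit reads were 9.80, 12.1 and 11.6 in spleen low, 10.3, 9.11 and 7.08 in spleen high, 11.8, 8.82 and 10.8 in mesenteric low, 11.5, 13 and 17.2 in mesenteric high, 8.80, 11.3 and 10.4 in axillary low and 7.32, 10.8 and 9.94 in axillary high. The groups overlapped, and mesenteric high replicate 3 was the highest library. The mean of 10.6 ± 2.28 reads (SD, n = 18) gave a rank percentile of 5.34. Rpl9 (12.2 ± 2.54 reads, rank percentile 9.60), Rpl11 (12.9 ± 2.70, 11.9), Rps26 (13 ± 2.54, 12) and Rps7 (14.5 ± 3.44, 18.2) were also among the weakest. Rpl11 is known for carrying the smallest ribosomal RNA together with Rpl5 and for binding Mdm2, and the region of Rpl5 had 19.9 ± 3.85 reads (rank percentile 38.5). Over the members, the range of means from Rpl10a to Rpl37 was far wider than the spread of either over libraries.

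**Figure D3:**
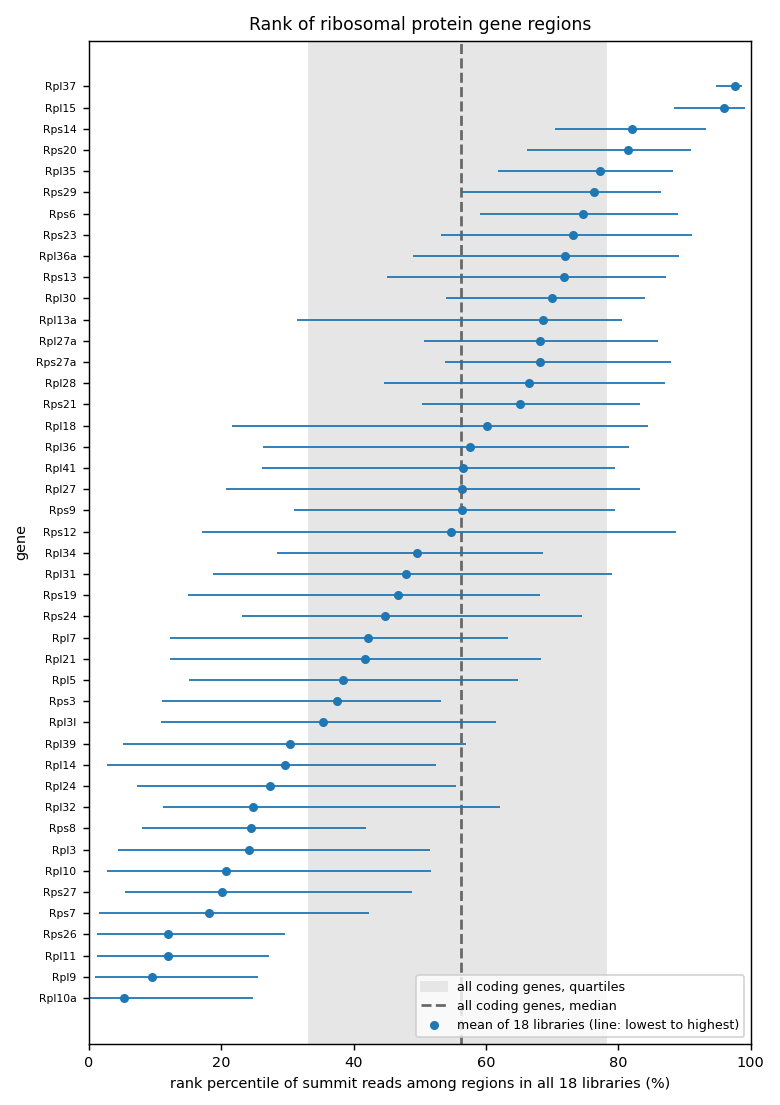
Rank percentile of summit reads (horizontal axis) of 44 of the 47 member regions present in all libraries, as the mean of 18 libraries (points) with the lowest and highest library (lines), against the median (dashed) and quartiles (grey band) of all coding genes with such a region. Members spread from 5.34 at Rpl10a to 97.6 at Rpl37 around a median close to that of all coding genes.

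The regions were of ordinary width, with a median of 698 bp against 719 bp for all regions present in every library. Rps27 had the narrowest, 511 bp, and Rpl7 the widest, 1943 bp, which also has a summit within 1 kb of an end of Rdh10. Many ribosomal protein genes have processed pseudogenes of near-identical sequence, and 300 of these were named in the annotation. Of the 23 members with 5 or more named pseudogenes, 11 had a peak in all libraries, 9 in some and 3 in none. For the 19 members with no named pseudogene the counts were 10, 5 and 4, and for the 58 with 1 or more they were 37, 16 and 5. How the authors treated reads that fit several places was not given in the sources used here, so regions that reach into exons are less certain than those upstream.

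The comparison of high with low reporter cells asks whether chromatin at these genes varies with tonic receptor stimulation. No member region passed the test. Of the 47 regions, 0 passed limma's test with Benjamini-Hochberg adjustment over all 8756 regions (background 0.206%), and 1 had an unadjusted p under 0.05 (background 8.47%). The median difference, high minus low, was 0.03 on the log2 scale, against 0.00 for all regions. At the high level 28 of 47 were higher (59.6%, background 50.1%). All 47 of the 95% intervals of the difference averaged over the 3 organs stayed within 1.5-fold in either direction, as did 95.2% of those of all regions. These intervals hold for the average and for the spread of these libraries only, and in single organs the difference reached 0.61 for Rpl27 in spleen and 0.56 for Rpl10 in mesenteric nodes. In bulk libraries, fewer cells with an open region and less opening per cell cannot be told apart.

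Rps6, the small-subunit protein phosphorylated by S6 kinases downstream of mTOR, had the smallest p of the members. Its normalised summit reads were 25.5, 37.4 and 43.3 in spleen low and 26.7, 35.4 and 25.3 in spleen high, 35.3, 29.4 and 29.4 in mesenteric low and 29.0, 25.2 and 27.7 in mesenteric high, and 37.4, 40.6 and 36.9 in axillary low and 31.4, 34.8 and 34.2 in axillary high. The high libraries lay below the low libraries in both node groups without overlap and overlapped them in the spleen. In mesenteric nodes the gap was narrow, 29.0 against 29.4 reads. The gene was picked by its p, and the share of all regions that separate in this way is not given here. The log2 difference was -0.22 (SE 0.101, 95% interval -0.42 to -0.01, limma adjusted p = 0.559), which did not pass the test. By organ it was -0.26 in spleen, -0.20 in mesenteric nodes and -0.19 in axillary nodes. The next genes on the lower side were Rpl36a (-0.12), Rpl35 (-0.09) and Rpl18 (-0.10), with limma adjusted p of 0.816 to 0.866.

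On the higher side the smallest p values included those of Rps19 (0.21), Rpl9 (0.22) and Rps29 (0.15), as log2 differences with limma adjusted p of 0.683 to 0.740. Rps19, the gene most often mutated in Diamond-Blackfan anaemia, had 19.9 to 28.3 normalised reads (median 22.9) in the 9 high libraries and 13.7 to 28.4 (median 21.6) in the 9 low libraries, so the levels overlapped. Rpl9 had 8.40 to 16.6 (median 13.6) at the high level and 9.11 to 13.7 (median 10.8) at the low level, again overlapping. Whether the reporter difference varied between organs was tested by an interaction over the 18 libraries, and 0 of 47 members passed (limma, 0.251% of all regions). Like the presence tests, and unlike the main tests of level and organ, this test takes the libraries of a group as independent. Its p-values may thus be too small. At an unadjusted p under 0.05 there were 5 of 47, against 10.5% of all regions, among them Rps13, Rpl36a and Rpl27. None of the 43 mitochondrial ribosomal protein genes, 8 other cytosolic ribosome genes, 13 translation factors or 23 biogenesis genes tested passed between high and low either.

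**Figure D4:**
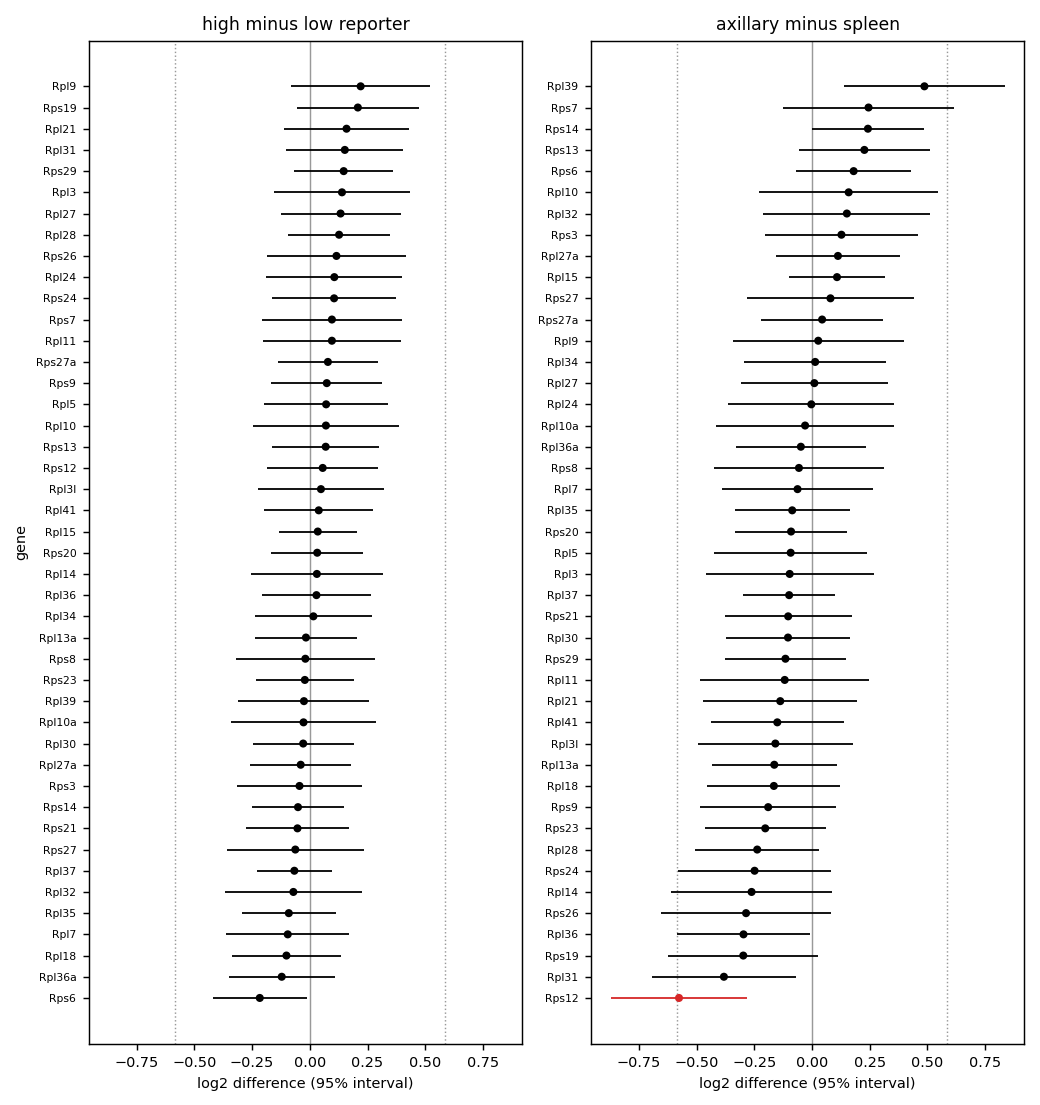
Log2 differences in normalised summit reads (points) with 95% intervals (lines) of 44 of the 47 member regions, high minus low on the left and axillary minus spleen on the right, each sorted by value, with dotted lines at 1.5-fold and red where the limma adjusted p is under 0.05. All intervals on the left stay inside the dotted lines, and Rps12 on the right, at -0.58, is the only region shown in red.

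The organ comparisons ask whether the tissue environment goes with a difference at these genes. Between mesenteric nodes and spleen, 0 of 47 members passed limma's test (background 0%), and 5 had an unadjusted p under 0.05 (background 10.8%). The median difference, mesenteric minus spleen, was 0.02 against 0.00 for all regions, and 42 intervals stayed within 1.5-fold. Rps12 (-0.40), Rps27a (-0.28), which is made as a fusion to ubiquitin, and Rpl21 (-0.34) had lower values in mesenteric nodes. Rps7 (0.39), Rpl39 (0.31), Rpl18 (0.26) and Rpl41 (0.22) had higher ones, and for these 7 the limma adjusted p was 0.326 to 0.618. The regions used for Rpl18 and Rpl41 lie far from their annotated starts. Rps7 had 11.8 to 18.7 normalised reads (median 17.3) in mesenteric nodes and 9.11 to 20.6 (median 11.2) in spleen, with overlap.

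Between axillary nodes and spleen, 1 of 47 members passed limma's test (2.13%, background 1.36%), and 5 had an unadjusted p under 0.05 (background 16.1%). The member was Rps12, a protein of the small subunit beak, at chr10:23786864-23787651, whose summit lay 73.5 bp upstream of the start shown above (-73.5 bp). Its normalised summit reads were 28.4, 31.4 and 24.3 in spleen low and 35.0, 41.5 and 24.3 in spleen high, 21.6, 22.5 and 27.5 in mesenteric low and 22.2, 23.7 and 21.0 in mesenteric high, and 14.3, 21.4 and 26.5 in axillary low and 20.9, 16.8 and 24.3 in axillary high. The spleen libraries had the highest median (29.9, against 22.4 in mesenteric and 21.2 in axillary nodes). The organs overlapped, since replicate 3 of both spleen groups lay below mesenteric low replicate 3 and axillary low replicate 3, while 4 of the 6 axillary libraries lay below every spleen library. The log2 difference, axillary minus spleen, was -0.58 (SE 0.146, 95% interval -0.87 to -0.28, 0.671-fold, limma adjusted p = 0.0394).

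The call at Rps12 depended on single libraries. Leaving out each of the 18 libraries in turn kept its direction (-0.68 to -0.45), but the limma adjusted p ranged from 0.0189 to 0.109 and passed in 6 of the 18 fits. These left out spleen low replicate 3, spleen high replicate 3, mesenteric high replicate 3, axillary low replicate 3, axillary high replicate 1 or axillary high replicate 3, and the call was lost without any 1 of the other 12 libraries. The fragment estimate was longer in 5 of 6 axillary libraries and in 1 of 6 spleen libraries. A fit on only the libraries with fragment estimates under 200 bp kept the direction at Rps12. It held only 1 axillary library and cannot separate fragment estimate from organ, so the part of the fragment estimate in this difference was not tested.

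Over all members, the median difference between axillary nodes and spleen was -0.10, against 0.00 for all regions and -0.04 for all regions within 1 kb of a coding gene end. In axillary nodes 15 of 47 members were higher (31.9%), against 49.3% of all regions and 42.0% of those within 1 kb of a coding gene end. Intervals stayed within 1.5-fold for 38 of the 47. Rpl39, which lines the exit tunnel of the ribosome, had the largest value on the higher side (0.49) and did not pass. It had 15.8 to 24.2 normalised reads (median 20.7) in axillary nodes and 11.1 to 20.6 (median 14.3) in spleen, with overlap. Of the translation factors 1 of 13 passed, Eif4b, an initiation factor that promotes RNA unwinding, at -1.05 (limma adjusted p = 0.0106).

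**Figure D5:**
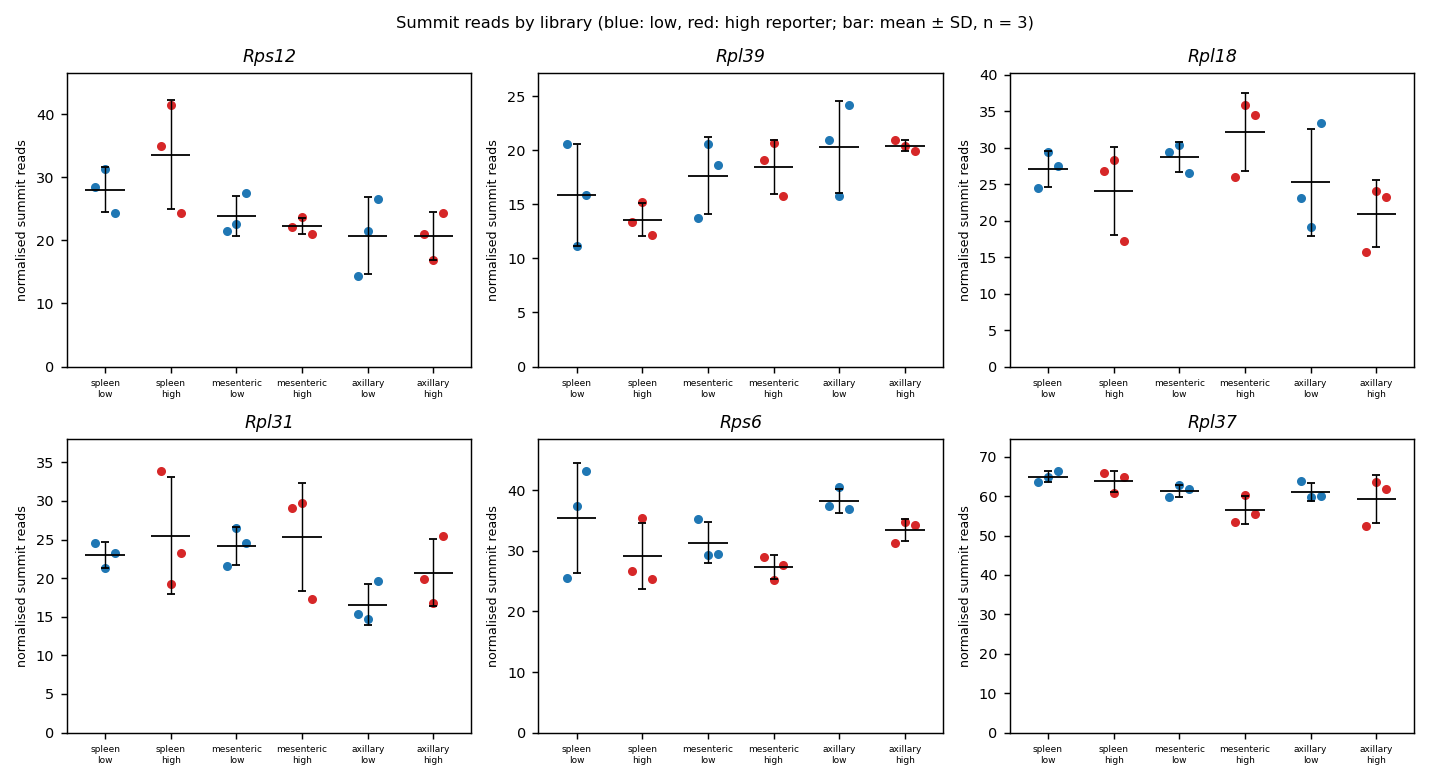
Normalised summit reads (vertical axes, from 0) of Rps12, Rpl39, Rpl18, Rpl31, Rps6 and Rpl37 in each library of the 6 groups (points, blue for low and red for high reporter), with the mean and SD of 3 libraries as bars. Rps12 has its highest library, 41.5, in spleen high replicate 2 and overlaps between organs, and Rpl37 stays between 52.3 and 66.5 in all groups.

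Between mesenteric and axillary nodes, 0 of 47 members passed limma's test (background 3.17%), and 7 had an unadjusted p under 0.05 (background 19.2%). The median difference, mesenteric minus axillary, was 0.04, the same as for all regions within 1 kb of a coding gene end, and 35 intervals stayed within 1.5-fold. This comparison shares its libraries with the other organ comparisons. Rpl18 (0.43, limma adjusted p = 0.0880), Rpl31 (0.41, 0.125), Rpl41 (0.37, 0.139) and Rps19 (0.35, 0.226) had higher values in mesenteric nodes. Rps27a (-0.32, 0.158), Rps6 (-0.29, 0.177), Rps14 (-0.19, 0.392) and Rpl27a (-0.17, 0.523) had lower ones, though Rpl27a turned to 0.021 with scaling to the genome-wide background. That scaling, which moved the median of all regions by 0.20 here and by 0.22 between mesenteric nodes and spleen, called 7 and 4 members, all higher in mesenteric nodes, where it called 16.1% and 11.2% of all regions. Among the other cytosolic ribosome genes, Rplp0, the scaffold of the stalk, was the 1 of 8 that passed, at 0.49 (limma adjusted p = 0.0368).

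Rpl31, which sits by the exit of the tunnel, had 24.5, 21.3 and 23.2 normalised reads in spleen low, 33.9, 19.2 and 23.3 in spleen high, 21.6, 26.5 and 24.5 in mesenteric low, 29.0, 29.8 and 17.2 in mesenteric high, 15.4, 14.7 and 19.6 in axillary low and 19.9, 16.8 and 25.4 in axillary high. Axillary low replicates 1 and 2 lay below all other libraries. Axillary low replicate 3 (19.6) lay above spleen high replicate 2 (19.2) and mesenteric high replicate 3 (17.2), and the axillary high libraries also overlapped the other organs. Rps19 had 16.5 to 20.4 reads (median 19) in axillary nodes and 21.0 to 28.4 (median 23.2) in mesenteric nodes, without overlap, and its spleen libraries spanned both (13.7 to 28.3). Rps27a had 23.5 to 27.5 reads (median 25) in mesenteric nodes and 27.6 to 40.9 (median 30.5) in axillary nodes, also without overlap. Both genes were picked by p, and the share of all regions that separate in this way is not given here. The region used for Rpl41 lies 1378 bp downstream of its annotated start, within 1 kb of Zc3h10, so its values may not describe the Rpl41 promoter. That of Rpl18 lies at the gene's outermost upstream end, far from its annotated start. The libraries of Rpl18 overlapped, with 26.0 to 35.9 reads (median 29.9) in mesenteric nodes and 15.7 to 33.4 (median 23.2) in axillary nodes.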

How the data were processed

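ATAC-seq peaks of 18 mouse libraries were deposited as 1 peak list per library on mm10, so they were called per sample. Per the submitters' processing notes, the authors used Trimmomatic 0.33, Bowtie2, bedtools and MACS, and the sources used here do not give other versions, duplicate handling or options. Each deposited peak has a score, a fold enrichment (ratio of summit reads to local background), a −log10 p-value and a −log10 q-value, the smallest −log10 p being 5.00.

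Whole summit reads were recovered from the deposited fold and −log10 p: 1 pair of reads and background matched both within 0.002 in 99.3% of peaks. Peaks on chromosomes 1 to 19 and X (404 others were set aside) were merged into 33115 regions, present in a library with at least 1 bp of overlap. Genes came from RefSeq (GRCm38.p6). Summit reads of the 8756 regions present in all libraries were scaled by median of ratios, taken as log2, averaged over the 3 libraries of each group, and fitted with limma 3.58.1 (organ and level, trend) in R 4.3.3, with Benjamini-Hochberg adjustment at 0.05 over all regions. Values of a gene are those of its strongest region. Depth is known only relative to other libraries, and p-values measure only the spread of these libraries, which can be technical. The fit was tested on simulated data.

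Named genes were those lacking a peak in some library, the 6 with the highest and 6 with the lowest mean rank, per comparison those called (if none, the 4 smallest p in each direction), and the widest and narrowest region. Others named were chosen after their values were seen, and some genes that the rule names are not reported here. Members and lists were chosen with earlier results of these data known.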

Additional observations from a re-analysis of the deposited data

How the results depend on the processing

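Between high and low, 0 members were called under all 26 alternatives. Between mesenteric nodes and spleen the count was 0 except 4 (Rpl41, Rps7, Rpl18 and Rpl39) with scaling to the genome-wide background, which moved the median of all regions by 0.22 (log2) and called 983 regions (11.2%). Between axillary nodes and spleen, 1 member was called, against 2 with 18 libraries as replicates (Rps12 and Rpl39; 5.76% of all regions), 0 after subtracting local background, 0 without the trend, 4 with only the 12 libraries of fragment estimates under 200 bp (among them Rps12, Rpl36 and Rpl13a; 3.52% of all regions; chosen after seeing the data, with 1 axillary library left), and 0 to 1 leaving out 1 library. At Rps12 the limma adjusted p was 0.0522 after subtracting background and 0.123 without the trend. Between mesenteric and axillary nodes, 0 were called, against 1 with 18 libraries (Rpl18; 9.64% of all regions), 7 with genome-wide background scaling (among them Rpl31, Rpl41, Rps29, Rpl28, Rps19 and Rpl18; 1410 regions, 16.1%, median shift 0.20), 2 with short fragment estimates only (Rpl3 and Rpl13a; 4.16%), and 0 to 1 leaving out 1 library (Rpl31 without mesenteric high replicate 3, and Rpl18 without axillary low replicate 3). The cause was not tested. Rpl27a changed sign there under background scaling (0.021).

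Correlations of same-numbered libraries' deviations were -0.0271 to 0.0353, and those of other pairs of libraries -0.0651 to 0.0354. Libraries of 1 group differ by less than the sampling noise of their reads. These correlations therefore cannot decide whether equal replicate numbers pair the libraries. With the replicate number as a block, 1 member was called between mesenteric and axillary nodes (Rpl18; 9.31% of all regions), where 0 were called with 6 group means and 1 with 18 libraries without the block.

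Members with a peak in all libraries numbered 45 within 500 bp, 36 within 250 bp, 33 at a −log10 p of at least 10, 42 at equal list length and 47 to 49 leaving out 1 library. The matching counts over all coding genes are not given here, so the contrast with the background is shown for the main setting only. The median rank was 47.2 among gene-end regions only. Presence tests called 0 members under all alternatives, with 0 to 2 at an unadjusted p under 0.05 under the stricter threshold, equal list length and summit settings. Leaving out 1 library gave 0 to 1 such regions between levels and 1 to 4 across organs, with 4 without axillary low replicate 1, 3 without spleen low replicate 1, spleen low replicate 2 or axillary low replicate 2, and 2 without spleen low replicate 3, mesenteric low replicate 1, axillary low replicate 3 or any 1 spleen high or axillary high library. Regions of low depth near the calling threshold limit the members present in some libraries.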
